A study of Mus musculus with 5 samples.

Results

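The protein coat of caveolae was examined at the RNA level in mouse Neuro-2A (N2A) neuroblastoma cells after knockdown of Upf1, which encodes a helicase required for nonsense-mediated mRNA decay (NMD). The 8 genes were Cavin1, Cavin2, Cavin3, Cavin4, Cav1, Cav2, Ehd2 and Pacsin2, taken by symbol from the 55573 genes of the deposited count table. Cavin2 is among them because it was strongly higher after knockdown in these same libraries, and its difference is therefore a description without a test. Of the 8 genes, 6 had reads, and the 5 of these other than Cavin2 were tested. Cav1 and Cav2 had no reads.

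Cells of the commercially obtained N2A line, grown in medium with serum, were transfected with 60 pmol of a commercial non-targeting siRNA (Silencer Negative Control #1, siCtl, 2 libraries, replicates 1 and 3) or with 60 pmol of a single Upf1 siRNA (siUpf1, 3 libraries, replicates 1, 2 and 3). Both groups received siRNA and the same transfection reagent, and the time between transfection and harvest was not given in the sources used here. Polyadenylated RNA was sequenced with strand kept. Protein blots of cells given these siRNAs came from independently repeated experiments per the study, but neither the labels nor the methods tie the libraries to separate cultures. The p-values therefore measure the spread between these libraries, part of which may be technical.

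Caveolae are small flask-shaped pits of the plasma membrane. Caveolins, which are cholesterol-binding membrane proteins, form them together with cavins, which assemble as a peripheral coat on the cytoplasmic side, while EHD2 and PACSIN2 act at the neck of the pit. Caveolae are abundant in endothelial cells, adipocytes and muscle and are rare in neurons. NMD is a translation-dependent decay pathway, and known features of its targets are a splice junction well after the stop codon, a long 3′ untranslated region (3′ UTR) and an open reading frame upstream of the main one.

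The sequences that bear on the knockdown and on Cavin2 are shown first. The siRNA is given because either strand of such a duplex can pair through its seed, bases 2 to 8 from the 5′ end (capitals), with sites in other mRNAs. The strand in the labels is identical to Upf1 mRNA, and the antisense strand is its reverse complement. The sites are the only matches among the representative 3′ UTRs of the 8 genes to 3 heptamers, each searched on the mRNA strand: GATAATT and AACCTTG, which are complementary to the antisense and sense seeds, and GCAGTAC, which an earlier examination of these libraries had singled out among mRNAs that were higher in siUpf1. Capitals in the sites mark the heptamer.
Upf1 siRNA, sense strand: uCAAGGUUccugauaauua
Upf1 siRNA, antisense strand: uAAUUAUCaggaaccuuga
Cavin2 3′ UTR, GCAGTAC at chr1:51302272-51302278 (GRCm38, plus strand): ctaaataaatgGCAGTACacatctttttg
Pacsin2 3′ UTR, AACCTTG at chr15:83376988-83376994 (GRCm38, minus strand): gttgcagggctAACCTTGtgcaacgttcc

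In the libraries, Upf1 was at 46.8% of its siCtl level in siUpf1 (log2 fold change -1.10 with an SE of 0.051, adjusted p = 7.09e-101 by DESeq2). The libraries held 20402205 to 27717594 assigned reads. The neuroblastoma markers Hand2 and Gata3, picked here after their values were seen, were well detected. Their means were 6164 and 517.7 normalised read counts in siCtl and 9148 and 750.5 in siUpf1. Of the 9 listed markers, all with reads, DESeq2 called 6 higher, these included, at an adjusted p-value under 0.05. Gata2 and Stmn2 were called lower, and Tubb3 was not called. Over all tested genes, 22.0% were called higher and 22.9% lower. The summed endothelial markers were at 10.8 to 11.1 CPM (counts per 1000000 assigned reads) in siCtl and 9.17 to 9.27 in siUpf1, with 4 of 6 genes detected and Kdr and Emcn at 0. Fibroblast markers were at 25.9 to 26.7 and 22.0 to 24.2, with 5 of 6 detected and Lum at 0, and muscle markers at 4.47 to 5.87 and 4.80 to 6.10, with 5 of 6 detected and Myod1 at 0. Adipocyte markers were at most 0.974 CPM (2 of 4 detected, Fabp4 and Cidec at 0) and leukocyte markers at most 0.301 (5 of 5 detected). Mitochondrial transcripts took 2.47% to 2.63% of reads in siCtl and 2.85% to 3.00% in siUpf1. The part of these differences in the results for caveolar genes was not tested.

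Cavin2 was about 4 times higher in siUpf1 than in siCtl, while Cavin1, Cavin3 and Ehd2 fell and Pacsin2 fell slightly. Cavin4 was near the limit of what these libraries could separate, and neither caveolin of non-muscle caveolae was detected. Among the 5 tested genes other than Cavin2, DESeq2 called 4 lower and 0 higher at an adjusted p-value under 0.05, where 22.9% of 15191 tested genes were called lower, 22.0% higher and 44.9% in either direction. At an unadjusted p-value under 0.05 the number was also 4, all lower, beside 7632 of the 15191 tested genes in either direction. With edgeR the numbers were the same, 4 lower and 0 higher, beside 4172 lower and 4220 higher among all genes that passed its own filter. Groups did not overlap for any of the 5: Cavin4 was higher in every siUpf1 library, as were 34.3% of all tested genes, and the other 4 lower, as were 35.2% (69.4% in either direction). Their median log2 fold change was -0.56, beside -0.0024 over all tested genes. Because these are bulk libraries, fewer cells that express a gene and less of its RNA per cell cannot be told apart.

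**Figure D1:**
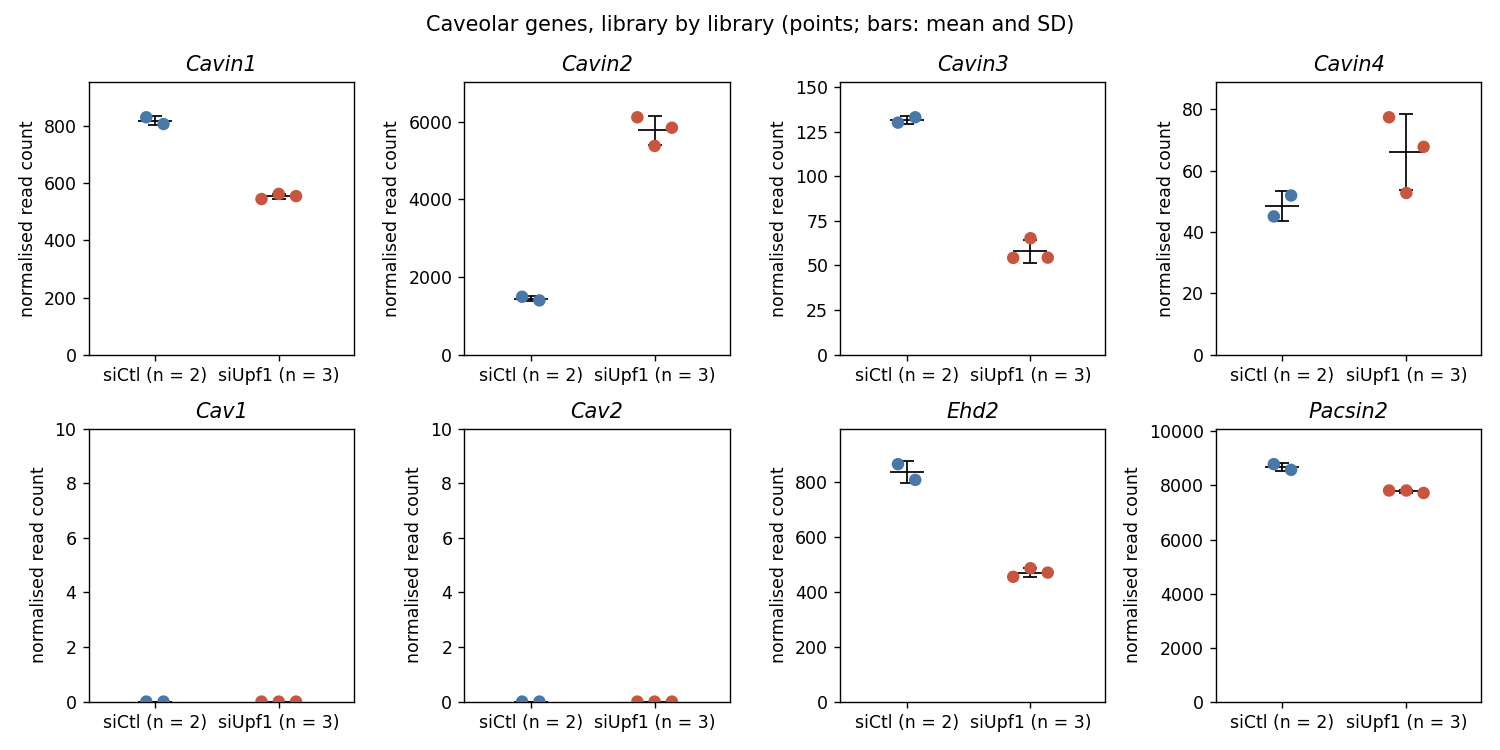
Normalised read counts (vertical axes, each from 0) of the 8 caveolar genes in 2 siCtl libraries (blue points) and 3 siUpf1 libraries (red points), with mean and SD as bars. Cavin2 was at 1399 to 1493 in siCtl and at 5379 to 6117 in siUpf1, Cavin1, Cavin3, Ehd2 and Pacsin2 were lower in every siUpf1 library than in either siCtl library, and Cav1 and Cav2 were at 0 throughout.

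The cavins were examined first. Cavin2 (also known as SDPR, a phosphatidylserine-binding cavin that bends membranes; ENSMUSG00000045954.7, chromosome 1, 51289126 to 51302960) had 1493 and 1399 normalised read counts in siCtl replicates 1 and 3, and 6117, 5379 and 5848 in siUpf1 replicates 1, 2 and 3. All 3 siUpf1 libraries were far above both siCtl libraries, and replicate 2 was the lowest of the 3. The log2 fold change was 2.00 (SE 0.063), a level of 400.3% of siCtl. Because every library received an siRNA, a higher Cavin2 level with the Upf1 siRNA and a lower one with the control siRNA cannot be told apart. A called log2 fold change of 1 or more was found for 2.79% of tested genes, a class that includes Cavin2 by its selection.

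Cavin1 (also known as PTRF, the core coat protein without which caveolae do not form; ENSMUSG00000004044.9, chromosome 11, 100956733 to 100970887) had 830.2 and 806.6 normalised read counts in the siCtl libraries and 544.3, 562.3 and 554.5 in the siUpf1 libraries. The siUpf1 libraries were close to each other and below both siCtl libraries. Cavin1 fell to 67.6% of the siCtl level (log2 fold change -0.56 with an SE of 0.095, adjusted p = 1.77e-08 by DESeq2).

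Cavin3 (a cavin that binds protein kinase C delta; ENSMUSG00000037060.3, chromosome 7, 105480083 to 105482300) had 130.0 and 133.0 normalised read counts in siCtl and 54.25, 65.26 and 54.38 in siUpf1. The groups were well apart, although the gene had only 52 to 141 reads per library. Its fall was the largest among the 5 tested genes other than Cavin2, to 43.8% of siCtl (log2 fold change -1.19 with an SE of 0.25, adjusted p = 1.01e-05 by DESeq2). A called log2 fold change of -1 or less was found for 2.06% of tested genes.

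Cavin4 (also known as MURC, the cavin of heart and skeletal muscle; ENSMUSG00000028348.7, chromosome 4, 48663514 to 48673502) had 45.07 and 51.89 normalised read counts in siCtl and 77.38, 52.71 and 67.75 in siUpf1. The lowest siUpf1 library was just above the highest siCtl library. The log2 fold change of 0.45 (SE 0.32, 95% interval -0.17 to 1.07) did not pass the test (DESeq2 adjusted p = 0.254), and edgeR gave an unadjusted p = 0.0396 and an adjusted p = 0.0689. With 42 to 87 reads per library, a change of this size in either direction could not be resolved at this depth.

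The caveolins followed. Cav1 (ENSMUSG00000007655.16, chromosome 6, 17306335 to 17341452), the main structural protein of non-muscle caveolae, had 0 reads in all 5 libraries. Cav2 (ENSMUSG00000000058.6, chromosome 6, 17281185 to 17289115), its partner in hetero-oligomers, also had 0 reads in all 5. A count of 0 allows up to 3 reads, or 0.108 to 0.147 CPM depending on the library, and this limit covers counting error only. Upf1 knockdown was thus not accompanied by a detectable level of either transcript. The muscle caveolin Cav3 (chromosome 6, 112459505 to 112472872) was detected at a low level, with 26 to 42 reads per library, and was not called (log2 fold change -0.22 with an SE of 0.38, adjusted p = 0.689 by DESeq2).

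**Figure D2:**
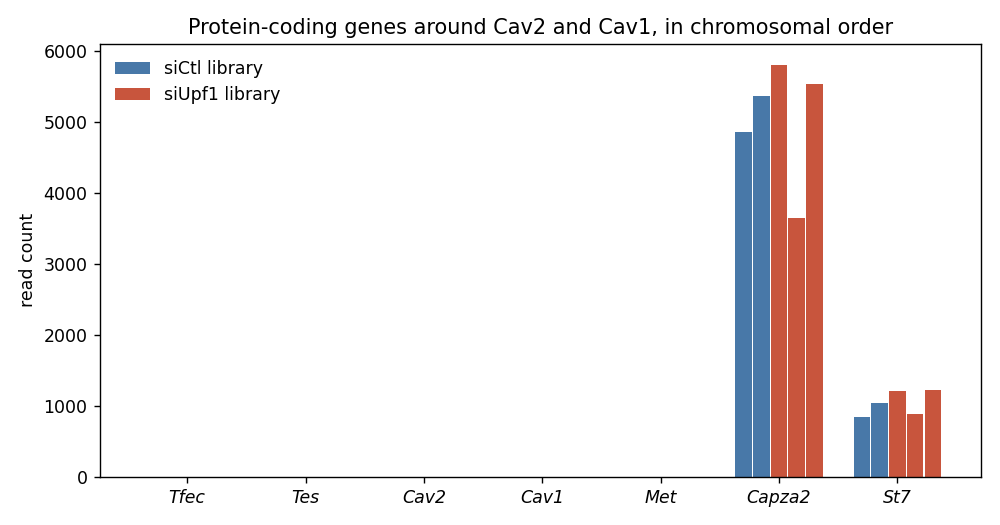
Read counts (vertical axis, from 0) of the 7 protein-coding genes around Cav2 and Cav1 in chromosomal order, in each siCtl library (blue) and siUpf1 library (red). Cav1 and Cav2 had 0 reads, while Capza2 had 3643 to 5808 reads per library and St7 843 to 1224.

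Both proteins of the caveola neck had lower transcripts in siUpf1. Ehd2 (an ATPase that forms rings at the neck and holds caveolae at the surface; ENSMUSG00000074364.6, chromosome 7, 15946958 to 15967567) had 864.8 and 807.6 normalised read counts in siCtl and 454.5, 485.7 and 469.8 in siUpf1. The groups were separated by a wide gap. Ehd2 fell to 56.2% of siCtl (log2 fold change -0.83 with an SE of 0.1, adjusted p = 9.02e-16 by DESeq2).

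Pacsin2 (an F-BAR protein that senses and shapes membrane curvature, also active outside caveolae; ENSMUSG00000016664.16, chromosome 15, 83375607 to 83464606) had 8789 and 8579 normalised read counts in siCtl and 7814, 7814 and 7723 in siUpf1. It fell to 89.6% of siCtl (log2 fold change -0.16 with an SE of 0.041, adjusted p = 0.000459 by DESeq2). The small difference lost its call without siCtl replicate 1 (adjusted p = 0.051) and with the replicate number as a block (adjusted p = 0.139), and over the alternatives the adjusted p-value ranged from 0.000214 to 0.139.

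Levels were compared between genes as CPM per kilobase of merged exons. In siCtl, Pacsin2 was the highest at 70.1 ± 0.635 (SD, n = 2), followed by Cavin2 at 18.8 ± 0.706, Cavin1 at 9.04 ± 0.111, Ehd2 at 6.47 ± 0.261, Cavin3 at 3.14 ± 0.0767 and Cavin4 at 0.936 ± 0.101. No neighbours in this order had overlapping ranges. In siUpf1, Cavin2 reached 76.2 ± 6.88 (SD, n = 3) and passed Pacsin2 at 63.8 ± 1.65, an order that turned when the longest transcript was used as the length (Pacsin2 84.8, Cavin2 76.2). Cavin1 followed at 6.21 ± 0.0734, then Ehd2 at 3.69 ± 0.0344, while Cavin3 at 1.40 ± 0.116 and Cavin4 at 1.30 ± 0.276 overlapped. The level of Cav3 was 1.38 ± 0.116 in siCtl, where its range (1.30 to 1.46) was above that of Cavin4 (0.865 to 1.01). In siUpf1 the level of Cav3 was 1.20 ± 0.104, in the range of Cavin4.

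**Figure D3:**
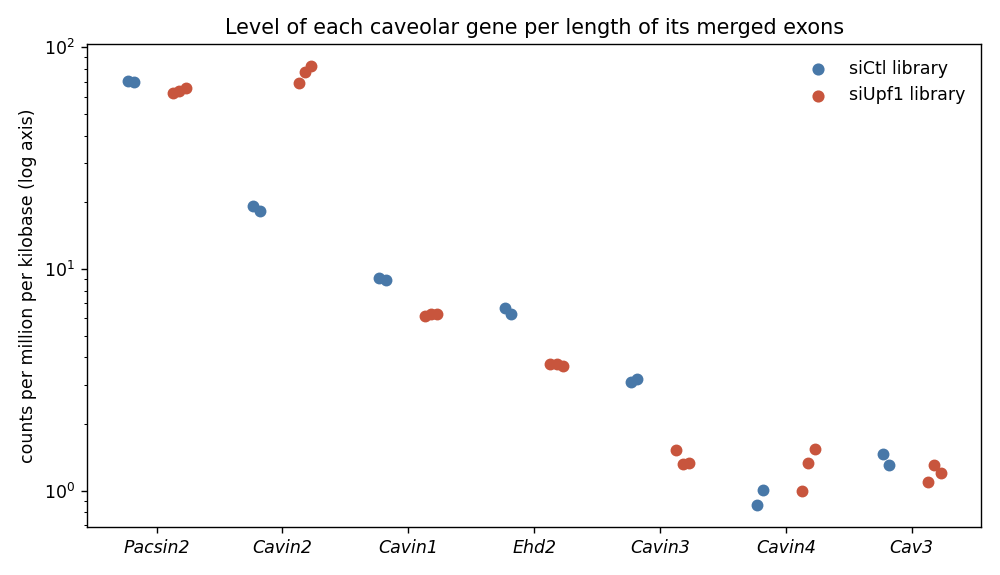
Levels (CPM per kilobase of merged exons, log axis) of the 6 detected caveolar genes and of Cav3 in each siCtl library (blue) and siUpf1 library (red). Cavin2 moved from 18.8 to 76.2, next to Pacsin2 (their order in siUpf1 depends on the length used), and Cavin3 and Cavin4 overlapped in siUpf1. Cav1 and Cav2, at 0, cannot be drawn on this axis.

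The make-up of the cavin transcripts changed with these differences, which follows from values already given and from the selection of Cavin2. Of the summed per-length level of the 4 cavins, Cavin2 was 59.6% and 58.1% in the siCtl libraries and 90.0%, 88.8% and 89.7% in the siUpf1 libraries. The share of Cavin1 went from 28.2% and 28.5% to 6.82%, 7.91% and 7.24%. There were 2.11 and 2.04 Cavin2 per Cavin1 on this scale in siCtl, and 13.2, 11.2 and 12.4 in siUpf1. The ratio of Cavin1 to Cavin3, in which Cavin2 has no part, was 2.96 and 2.81 in siCtl and 4.65, 3.99 and 4.72 in siUpf1. It was higher in each siUpf1 library than in either siCtl library, and this difference was not tested.

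**Figure D4:**
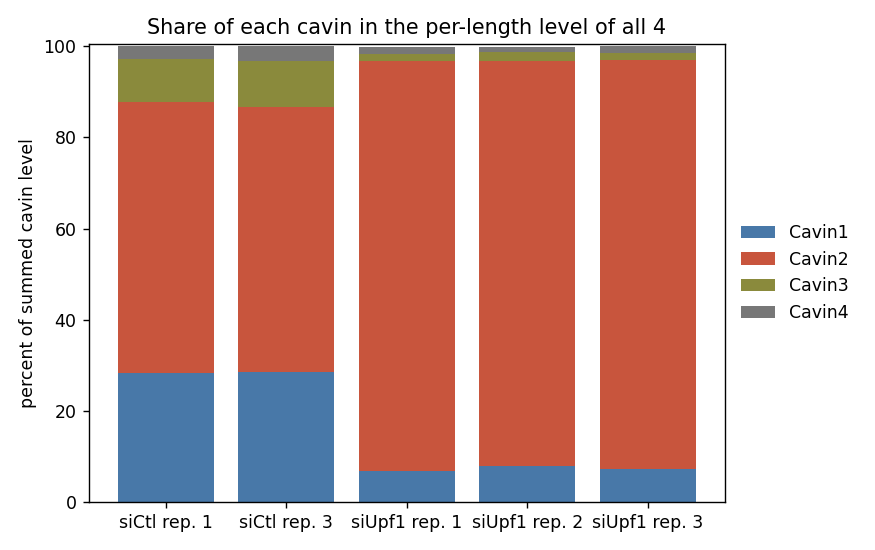
Share of Cavin1, Cavin2, Cavin3 and Cavin4 (stacked bars, percent) in the summed CPM per kilobase of the 4 cavins, for each library. Cavin2 took 58.1% to 59.6% in siCtl and 88.8% to 90.0% in siUpf1.

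The gene models were examined for known features of NMD targets, in 1 representative transcript per gene, the protein-coding one with the longest coding sequence. None of the 8 genes had a splice junction after the stop codon in that transcript, and 0.416% of tested mRNAs had one more than 50 nt after it. Only Cav1, which had no reads, had an isoform annotated as an NMD substrate. The 3′ UTR of Cavin2 had 1538 nt, longer than in 65.8% of 12268 tested mRNAs, while the 3′ UTRs of Cavin1 (1891 nt), Ehd2 (3283 nt) and Pacsin2 (2011 nt), which were lower in siUpf1, were longer than that of Cavin2. Cavin3 had 738 nt and Cavin4 857 nt, beside a median of 971 nt. An upstream AUG was present once each in Cavin1, Cavin2 and Cavin3 and in 50.2% of tested mRNAs. In none of these features did Cavin2 lie outside the range of the genes that fell. Upstream AUGs were counted without following their reading frames. The part of direct NMD in the difference of Cavin2 was not tested.

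Of the 8 genes, only Cavin2 held the heptamer GCAGTAC in this 3′ UTR. The heptamer was present in the 3′ UTR of 5.05% of the tested mRNAs, or 620 of them. Those mRNAs had a median log2 fold change of 0.24, with 49.4% called higher and 15.8% lower, while the 11648 mRNAs without it had a median of -0.03, with 23.4% called higher and 27.4% lower. Among the mRNAs with it, 5 had a log2 fold change at or above that of Cavin2, Cavin2 included, beside 11 of the mRNAs without it. None of 1738 mature mouse miRNAs in the RefSeq table had the complementary seed, and the sequence of the control siRNA was not in the sources used here. Whether GCAGTAC is complementary to a seed of the control siRNA, which could lower mRNAs with the heptamer in siCtl, was therefore not tested, and the value of Cavin2 is to be read with this limit. Because the heptamer was chosen from these libraries, the counts are a description, and its part in the difference of Cavin2 was not tested.

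The seed complements of the Upf1 siRNA were sought in the same 3′ UTRs. AACCTTG occurred once, in Pacsin2, and in 9.52% of tested mRNAs, whose median log2 fold change was -0.11 with 37.6% called lower, beside 25.6% of those without it. GATAATT occurred in none of the 8 genes and in 7.59% of tested mRNAs. Those mRNAs had a median log2 fold change of 0.0019, with 28.6% called higher and 27.9% lower, beside 24.3% and 26.7% of those without it. Cavin1, Cavin3 and Ehd2 held neither heptamer in their representative 3′ UTR. Other isoforms and coding sequence were not searched, and the part of the siRNA seeds in the falls of caveolar genes was not tested.

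Caveolar genes were then set beside 5 related lists. Over all tested genes, 22.0% were called higher, 22.9% lower and 44.9% in either direction. An unadjusted p-value under 0.05 by DESeq2 was found for 7632 of 15191. Of 6 further caveolin, EHD and PACSIN genes, 3 were called lower and 0 higher (3 at an unadjusted p-value under 0.05, and 3 and 0 by edgeR), with a median log2 fold change of -0.25. Pacsin1, the neuronal PACSIN, fell from 252.1 ± 36.3 normalised read counts (SD, n = 2) to 129.8 ± 25.1 (n = 3), a log2 fold change of -0.97 (SE 0.2) with a DESeq2 adjusted p = 4.46e-06. Pacsin3 (-0.65) and Ehd1 (-0.29), which acts in endosomal recycling, fell as well. Ehd3 (log2 fold change -0.16), Ehd4 (0.09) and Cav3 did not pass the test.

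Receptors, kinases and adaptors known to associate with caveolae moved in both directions. Of 17 tested, 5 were called higher and 6 lower, beside 22.0% and 22.9% of all tested genes. The median log2 fold change was 0.06. Tgfbr1, a TGF-beta receptor, had 1313 ± 33.1 normalised read counts in siCtl and 2852 ± 153 in siUpf1 (log2 fold change 1.12, SE 0.066), and Adcy6, an adenylyl cyclase, rose too (0.88). Egfr (0.58), Abl1 (0.48) and Insr (0.26) were the other genes called higher. The lowest were the protein kinase C genes Prkcd (-0.70) and Prkca (-0.57). Prkcd, which encodes the kinase that CAVIN3 binds, had 1690 ± 42.2 normalised read counts in siCtl and 1045 ± 24.5 in siUpf1. Of the 3 genes without a test, Ror1 and Cd36 had no reads and Tgfbr2 had a mean of 2.04 normalised read counts in siCtl and 0 in siUpf1.

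Flotillins and related proteins scaffold membrane rafts without caveolins. Of 9 tested, 1 was called higher and 3 lower, beside 22.0% and 22.9% of all tested genes. The median log2 fold change was -0.20. Flot1 fell from 948.9 ± 38.9 to 565.6 ± 16.5 normalised read counts (log2 fold change -0.75, SE 0.093), Erlin2, of the endoplasmic reticulum, fell by 0.83 on the log2 scale, and Stom by 0.20. Stoml1 was the gene called higher (0.40), a call lost without siCtl replicate 1 and with the replicate block, where 0 were higher. Flot2 (-0.11), Stoml2 (-0.08), Erlin1 (0.00), Prom1 (-0.34) and Prom2 (-0.66) did not pass, and Stoml3 was not tested.

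Clathrin coats serve the main endocytic route other than caveolae. Of 26 tested genes, 10 were called higher and 9 lower, beside 22.0% and 22.9% of all tested genes. The median log2 fold change was 0.04. The highest were Eps15, an early adaptor of coated pits (1163 ± 20.5 to 2837 ± 167 normalised read counts, log2 fold change 1.29, SE 0.068), and the light chain gene Cltb (0.85). The lowest were Fcho2, which helps to nucleate pits (-0.68), and Gak, an uncoating factor (-0.47). Epn3, Amph and Sh3gl2 were too low to be tested. The number called higher was 4 without siCtl replicate 3 and 5 with the replicate block.

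YAP and TAZ are transcriptional coactivators that act through TEAD factors, and caveolar genes are among their known targets. Over all tested genes, 22.0% were called higher and 22.9% lower. Of 12 tested genes of this list, 1 was called higher and 5 lower, with a median log2 fold change of -0.52, and the number called lower was 3 without siCtl replicate 1. Ccn1, a standard readout, fell from 342.0 ± 23.3 to 158.3 ± 12.4 normalised read counts, a log2 fold change of -1.11 (SE 0.16) with a DESeq2 adjusted p = 2.24e-11. Axl (-1.23), Amotl2 (-0.62), Wwtr1, which encodes TAZ (-0.42), and the low-count gene Tead2 (-1.49) fell, and Tead1 rose (0.70). Ankrd1 (-0.76), Ajuba (-0.86), Lats2 (-0.21), Amotl1 (-0.15), Lats1 (0.02) and Tead3 (0.04) did not pass the DESeq2 test. By edgeR, 7 genes of the list were called lower and 1 higher. Yap1 had a mean of 0.472 normalised read counts in siCtl and 1.31 in siUpf1 and was not tested, nor were Tead4 and Ccn2. The part of YAP and TAZ in the differences of caveolar genes was not tested.

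**Figure D5:**
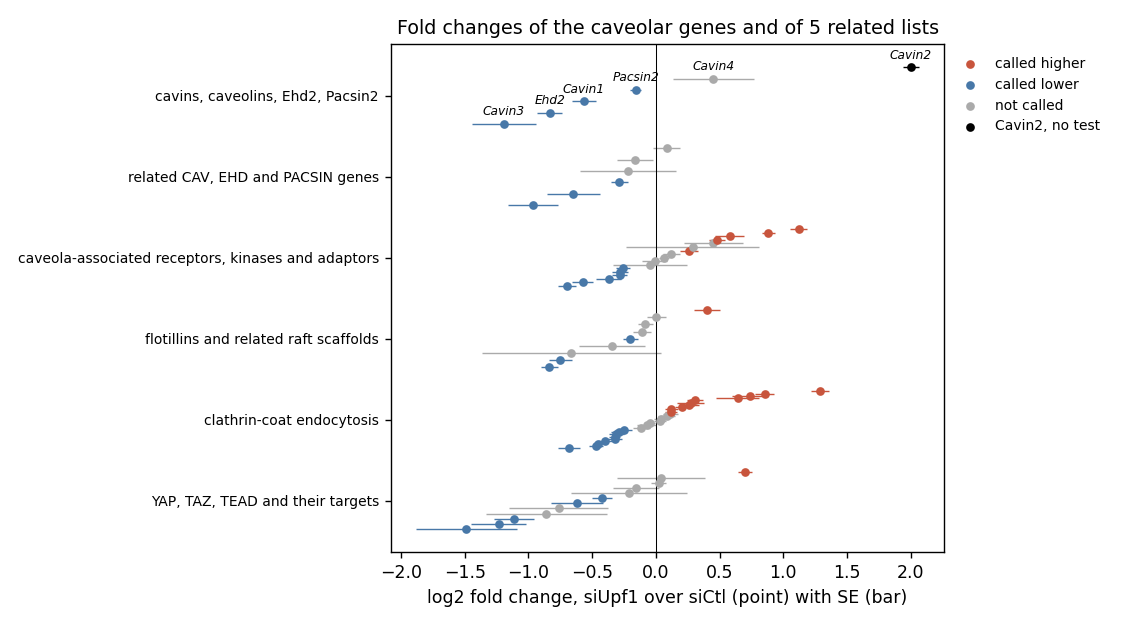
Log2 fold change of siUpf1 over siCtl (horizontal axis) with SE for the 6 caveolar genes with reads (top row, labelled). The tested genes of 5 related lists are below. Colours give the DESeq2 call, with Cavin2 in black because its difference is described without a test. Cavin2 at 2.00 lies apart from the other caveolar genes, which lie between -1.19 and 0.45.

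Genes with a pattern most like that of Cavin2 were sought among 10962 genes (mean normalised read count of 100 or more) by the root-mean-square difference of centred log2 values over the 5 libraries. The nearest was Igfbp5, an insulin-like growth factor binding protein (difference 0.0348), followed by Irs1 (0.0588), Fbn1 (0.0645), Syn2 (0.0810) and Npnt (0.0867). Igfbp5 had 1010 ± 24.6 normalised read counts in siCtl and 3935 ± 148 in siUpf1. With 2 groups, such likeness rests mainly on the size of the difference between them.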

How the data were processed

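The table deposited by the authors held raw counts for each gene and library. Per the study's methods and the submitters' processing notes, reads were trimmed with fastp, mapped to GRCm38.p6 with STAR (2.7.0f) and assigned to exons by featureCounts (Subread 1.6.4) in its reverse-stranded mode. Every column matched a sample label. DESeq2 (1.42.0, R 4.3.3) was fitted to all 5 libraries and all genes, with 1 term for group, size factors by median of ratios and Benjamini-Hochberg adjustment (calls under 0.05) over the 15191 genes left by independent filtering. edgeR's quasi-likelihood test (4.0.16) was an alternative. Both were also run on simulated counts. There, few genes were changed, all well expressed and by large steps, so that run does not bear on small or low-count differences. With 2 libraries against 3, an exact permutation test cannot give a p-value under 0.1, so none was used. Means are given with the SD of normalised counts. Gene models came from GENCODE M21 (GRCm38), which held 55480 of 55573 identifiers. Sequence features were compared in tested mRNAs with a 3′ UTR of at least 50 nt. The caveolar genes, the 5 lists (80 genes) and the heptamers were chosen with earlier results of these data known. Named genes were Upf1, the 8 caveolar genes, the 5 nearest to Cavin2 and, in each list, the 2 highest and 2 lowest called genes (mean normalised count of 100 or more), with all genes behind a count of 5 or fewer. PCR duplicates cannot be recognised in counts. The summed level of the neuroblastoma markers is not reported here.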

Additional observations from a re-analysis of the deposited data

How the results depend on the processing

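Alternatives were edgeR, TMM or total-count size factors, a minimum of 10 counts in 2 libraries, no independent filtering, a replicate block, and omission of 1 library at a time. The tested genes were chosen anew in each setting and their number is not given. Counts in these settings therefore have no share of all genes beside them. The difference of Cavin2 was between 1.95 and 2.05 on the log2 scale in all 11. Cavin1, Cavin3 and Ehd2 kept their direction and call in all 11, Cavin4 stayed without a call, and Pacsin2 lost its call in 2 (adjusted p = 0.139 with the replicate block and 0.051 without siCtl replicate 1). Deviations from the group means correlated at -0.09 between the libraries numbered 1 and at -0.07 between those numbered 3. With 2 siCtl libraries, their deviations mirror each other, so both values rest on 1 siCtl difference. They cannot tell whether the numbers pair the libraries. With the replicate block, 1957 genes were higher and 1962 lower over all genes, 5 clathrin genes were higher, and 0 flotillin-related genes were higher. This setting leaves fewer degrees of freedom. Replicate 2 exists in siUpf1 only, so with its own block term it adds nothing to the group difference. The difference of Cavin2 was 2.05 with the block and 2.05 without siUpf1 replicate 2. Without 1 library, 3 to 4 caveolar genes other than Cavin2 were lower and 0 higher. Over all genes, 2393 to 2944 were then higher and 2374 to 3115 lower. Among clathrin genes 4 to 8 were higher, among flotillin-related genes 0 to 1 were higher, and in the YAP list 3 to 5 were lower. Upf1 was between -1.11 and -1.07 on the log2 scale in all 11. A fit without a siCtl library has 1 left, which is assumed to vary like siUpf1. The causes were not tested. With the longest transcript as length, levels per kilobase moved for Cavin1 (9.29 in siCtl, 6.38 in siUpf1) and Pacsin2 (93.2, 84.8). Depth limited the precision for Cavin4 and Cav3. For Cav1 and Cav2 it sets only the limit that a count of 0 allows.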

Other observations

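The region around Cav2 and Cav1 was looked at after their counts had been seen. Within 500000 bases on either side on chromosome 6 (GRCm38), GENCODE M21 has 7 protein-coding genes including both caveolins. Tfec and Tes, which lie before Cav2, had 0 reads in all 5 libraries, and Met, which follows Cav1 and encodes a receptor tyrosine kinase, had 1 read in each siCtl library and 0 in the siUpf1 libraries. The next gene, Capza2, which encodes an actin capping protein, had 3643 to 5808 reads per library, and St7 had 843 to 1224. Thus 5 neighbouring genes were at or near 0 and the following 2 were well detected in the same libraries, in both groups. Whether the DNA of the genes with no reads is present in these cells cannot be told from RNA counts alone.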
